A study of Homo sapiens with 20 samples.

Results

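The genes described here report on the integrated stress response and the unfolded protein response, and their nuclear RNA was measured in HCT116 cells, a human colorectal carcinoma line with wild-type p53. They were taken by symbol from the tables of both sequencing experiments, and 10 of 26485 gene rows are members. Of these, 6 belong to the amino acid stress branch (ATF4, DDIT3, TRIB3, CHAC1, ASNS and PSAT1) and 4 to the endoplasmic reticulum branch (HSPA5, XBP1, HERPUD1 and DNAJB9). Electroporation delivered either water or 10 µM of a bivalent stapled peptide designed against the contact between p53 and Mediator. The cells were then kept for 3 hours in 0.1% DMSO alone or with 10 µM Nutlin-3a, which releases p53 from MDM2, and wells with electroporated peptide also had 200 nM peptide in the medium. Ribosomal RNA was depleted from the nuclear RNA before directional libraries were made. The 4 conditions are called untreated (water, DMSO), peptide (peptide, DMSO), Nutlin (water, Nutlin-3a) and Nutlin with peptide, and all cells of all groups went through electroporation. Each had 2 libraries in experiment 1 and 3 in experiment 2, 20 libraries in all. The labels do not say that replicates were separate cultures, so the p-values measure only the spread between these libraries.

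ATF4 is a transcription factor whose messenger RNA is translated when the initiation factor eIF2 is phosphorylated, by GCN2 when amino acids are short or by PERK when unfolded proteins build up in the endoplasmic reticulum. Its known targets include enzymes of amino acid supply and the regulators DDIT3 (CHOP) and TRIB3. The endoplasmic reticulum also signals through ATF6 and through IRE1, which splices XBP1 RNA, and these raise chaperones such as HSPA5 (BiP) and factors that remove misfolded proteins. The values here are amounts of nuclear RNA, so they show neither the translation of ATF4 nor the splicing of XBP1. In bulk RNA, fewer cells with a transcript and less transcript per cell cannot be told apart.

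The promoters of the members differ in the letters that these pathways are known to use, and the 5 windows with a match are shown for that reason. Windows run from 250 bases before to 50 bases after a RefSeq gene start (GRCh38.p14), and all 10 members had at least 1 of the 35116 windows searched, on both strands. The endoplasmic reticulum stress element, searched as CCAAT and CCACG with 9 bases of any kind between them, was in 27 windows (0.0769%) and in 2 members, HSPA5 and XBP1. These parts alone were in 34.6% and 38.1% of windows and in 7 members each. An element bound by ATF4 with C/EBP partners, searched as TGATGNAAN, was in 3.61% of windows and in 3 members, ASNS, CHAC1 and HERPUD1. Capitals mark the fixed letters of these matches in the sequences, each written 5′ to 3′ on the gene's strand.
HSPA5 promoter (chr9:125241294-125241593, minus strand): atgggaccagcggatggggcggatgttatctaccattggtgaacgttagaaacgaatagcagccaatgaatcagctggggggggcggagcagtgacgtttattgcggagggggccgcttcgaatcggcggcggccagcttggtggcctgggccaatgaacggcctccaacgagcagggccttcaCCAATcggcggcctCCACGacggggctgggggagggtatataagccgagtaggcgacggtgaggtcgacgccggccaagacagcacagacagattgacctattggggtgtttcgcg
XBP1 promoter (chr22:28800520-28800819, minus strand): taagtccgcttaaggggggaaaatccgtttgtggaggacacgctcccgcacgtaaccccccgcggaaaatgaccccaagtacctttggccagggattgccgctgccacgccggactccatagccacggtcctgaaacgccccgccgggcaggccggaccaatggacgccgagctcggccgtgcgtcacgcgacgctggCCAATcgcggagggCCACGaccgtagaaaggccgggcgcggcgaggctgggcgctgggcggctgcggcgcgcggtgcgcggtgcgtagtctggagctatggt
ASNS promoter (chr7:97872359-97872658, minus strand): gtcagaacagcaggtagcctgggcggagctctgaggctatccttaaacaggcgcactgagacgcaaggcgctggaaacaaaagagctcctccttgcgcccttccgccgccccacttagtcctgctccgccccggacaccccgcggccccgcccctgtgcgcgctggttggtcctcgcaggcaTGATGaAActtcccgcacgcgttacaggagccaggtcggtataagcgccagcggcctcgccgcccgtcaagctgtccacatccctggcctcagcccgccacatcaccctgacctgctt
CHAC1 promoter (chr15:40953221-40953520, plus strand): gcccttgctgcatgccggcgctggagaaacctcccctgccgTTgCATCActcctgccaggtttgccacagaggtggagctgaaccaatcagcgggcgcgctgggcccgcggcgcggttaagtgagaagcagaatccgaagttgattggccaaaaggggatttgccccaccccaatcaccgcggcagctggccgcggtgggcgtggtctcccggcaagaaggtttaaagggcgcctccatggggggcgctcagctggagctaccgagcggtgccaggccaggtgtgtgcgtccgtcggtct
HERPUD1 promoter (chr16:56931892-56932191, plus strand): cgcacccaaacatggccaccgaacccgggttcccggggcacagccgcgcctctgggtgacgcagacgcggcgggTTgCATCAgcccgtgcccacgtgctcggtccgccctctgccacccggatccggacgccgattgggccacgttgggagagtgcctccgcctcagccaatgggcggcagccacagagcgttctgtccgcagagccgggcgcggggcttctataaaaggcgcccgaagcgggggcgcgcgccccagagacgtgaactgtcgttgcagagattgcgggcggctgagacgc

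The match lay at -66 to -48 from the gene start in HSPA5 and at -52 to -34 in XBP1, where 0 is the first transcribed base. In ASNS, which makes asparagine, it lay at -68 to -60 and read TGATGAAAC, letters found in 0.225% of all windows. CHAC1, a glutathione-degrading enzyme, and HERPUD1, a membrane protein of endoplasmic reticulum degradation, both held the reverse-strand form GTTGCATCA, at -210 to -202 and at -177 to -169. The form TGATGCAAT was in 0.236% of windows and in 0 member windows. HERPUD1, a member of the endoplasmic reticulum branch, thus held letters of the element bound by ATF4. Since ATF4 is also translated when PERK responds to unfolded proteins, these letters do not belong to the amino acid branch alone. HERPUD1 also held CCAAT and CCACG, but not as the full element searched. That element was searched in a single form, so other forms of it in HERPUD1 were not looked for. A match describes letters only.

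Depth over the gene rows ran from 36717795 to 63896604 reads in the 8 libraries of experiment 1, and the 12 of experiment 2 had 18787172 to 47407746. Levels are given as RPM, the reads of a gene per 1000000 reads over the rows. The share of structural RNA was 16.96 to 26.39% for experiment 1 but 1.668 to 5.287% for experiment 2, which alone shifts every other RPM. The labelled cell type was checked by its epithelial genes: EPCAM averaged 256 RPM, KRT8 1383 RPM and KRT18 654 RPM, while VIL1, a brush border gene, was near 0 at 0.191 RPM. Leukocyte markers summed to 0.147 to 1.35 RPM, fibroblast markers to 0 to 0.200 RPM and endothelial markers to 0.387 to 2.40 RPM per library. Replicate 2 of the Nutlin condition in experiment 1 is called the library that stood apart. It correlated with its partner at 0.955 across genes, where the other pairs of experiment 1 reached 0.992 to 0.997. Libraries of the same condition in experiment 2 correlated at 0.933 to 0.946. Such an r belongs to both libraries and does not by itself show which of them differs. The values that replicate 2 moves most are given with and without it for Nutlin without peptide and for peptide under Nutlin. It also enters the test of whether the Nutlin difference depended on peptide, where 2 members are given without it.

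The p53 target CDKN1A, the cell cycle inhibitor p21, was higher under Nutlin in 5 of 5 pairs of same-numbered libraries, at a log2 difference of 1.16 ± 0.29 (SE), and lower with peptide under Nutlin in 5 of 5, at -0.73 ± 0.29. The pairs averaged 1.93 and -1.65 (experiment 1) but 0.65 and -0.11 (experiment 2), and without the library that stood apart the fitted values were 0.91 ± 0.26 and -0.48 ± 0.26. MDM2, the other gene chosen as a check, was at 0.95 ± 0.54 under Nutlin and -0.46 ± 0.54 with peptide under Nutlin. Its 5 pairs were all above 0 in the former and all below 0 in the latter. They averaged 1.23 and -1.10 (experiment 1) but 0.76 and -0.03 (experiment 2). No gene passed limma's adjusted p of 0.05 in any comparison, so these are values and not calls.

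All 10 members passed the filter of a mean of 0.5 RPM, which left 15958 rows. Their depth was unequal. CHAC1 had 14 to 112 reads per library, so counting error alone was 26.7% at its lowest, while HSPA5 had 11987 to 125486 and ATF4 4229 to 45966. Per kilobase of listed span, introns included, HSPA5 and ATF4 had the highest levels of the set in untreated cells, with means of 49.9 and 57.2 RPM per kb (experiment 1) and of 388 and 376 (experiment 2). The next member per kilobase was XBP1 in experiment 1, at 4.02, and DDIT3 in experiment 2, at 32.9. The listed span of DDIT3 was short, at 819 bases, and did not reach its promoter windows, which limits this rank. CHAC1 was lowest, at 0.181 and 0.909 RPM per kb.

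The row of DDIT3 covered 12:57516588-57517406 (hg38, minus strand) and overlapped MARS on the opposite strand in GENCODE 29. The row of DNAJB9, at 7:108569745-108573353 on the plus strand, overlapped THAP5 on the opposite strand. How strand was used in the counting is not stated. ASNS was counted over 7:97852117-97864496, which stops short of its promoter window, and overlapped the noncoding AC079781.5 on the same strand. TRIB3 and HERPUD1 were counted over different isoforms in the 2 tables: TRIB3 over 20:380629-396690 in experiment 1 and from base 381343 in experiment 2, HERPUD1 over 16:56932090-56942211 and to base 56943290. Their levels in the 2 experiments are therefore not over the same bases.

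ATF4, the factor at the head of the amino acid branch, differed more between the experiments than within them. In experiment 1 its level was 115 and 118 RPM in the untreated, 118 and 131 in the peptide, 121 and 135 in the Nutlin and 131 and 132 in the Nutlin with peptide libraries. In replicates 1, 2 and 3 of experiment 2 the values were 737, 622 and 941 RPM in untreated, 757, 606 and 969.6 in peptide, 699.8, 541 and 861 in Nutlin and 647, 582 and 895 in Nutlin with peptide libraries. The conditions overlapped in experiment 2, and replicate 3 was highest in each of them.

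DDIT3, the transcription factor CHOP, had 2.10 and 2.93 RPM in untreated and 3.09 and 3.72 RPM in Nutlin libraries of experiment 1. In experiment 2 it had 11.4, 10.4 and 59.1 RPM in untreated, 15.4, 11.2 and 55.5 in peptide, 14.7, 15.5 and 62.8 in Nutlin and 17.4, 16.5 and 55.3 in Nutlin with peptide libraries. Replicate 3 was 3.93-fold above replicate 2 on average over the conditions, and all 4 libraries of replicate 3 were above all others. Its opposite-strand neighbour MARS was at 0.988-fold between replicates 3 and 2.

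ASNS had the widest spread over the replicate numbers of experiment 2 of any member. Its levels in experiment 1 were 21.8 and 19.2 RPM in untreated, 21.8 and 20.9 in peptide, 23.1 and 9.83 in Nutlin and 23.6 and 18.8 in Nutlin with peptide libraries. In experiment 2 they were 544, 91.9 and 214 RPM in untreated, 597, 84.0 and 246 in peptide, 536, 109.9 and 221 in Nutlin and 543, 107 and 238 in Nutlin with peptide libraries. Replicate 1 was 5.99-fold above replicate 2 on average, and within a replicate number the 4 conditions lay close together. PSAT1, the transaminase of serine synthesis, had 118, 108 and 77.8 RPM in untreated and 127, 145 and 76.0 RPM in Nutlin libraries of experiment 2, with replicate 3 lowest.

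TRIB3, a pseudokinase that restrains ATF4 signalling, had 15.0 and 14.9 RPM in untreated and 13.02 and 21.5 in Nutlin libraries of experiment 1, the last value being that of the library that stood apart. In experiment 2 it had 39.2, 17.1 and 25.6 RPM in untreated and 35.7, 23.6 and 27.9 in Nutlin libraries. CHAC1 had 0.381 and 0.466 RPM in untreated and 0.795 and 0.817 RPM in Nutlin libraries of experiment 1. In experiment 2 it had 2.75, 2.05 and 1.58 RPM in untreated and 1.73, 4.47 and 2.65 RPM in Nutlin libraries. Its untreated and Nutlin ranges overlapped in experiment 2 and not in experiment 1, where 2 libraries stand against 2. The share of all rows separated in that way was not computed.

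HSPA5, the main chaperone of the endoplasmic reticulum, was the most abundant member in RPM. It had 326 and 300.4 RPM in untreated and 328 and 268 in Nutlin libraries of experiment 1. In experiment 2 the untreated libraries had 3359, 1281 and 2666 RPM, the peptide libraries 3599, 1224 and 2647, the Nutlin libraries 4244, 1771 and 2772 and the Nutlin with peptide libraries 3688, 1644 and 2546. Nutlin libraries were above their untreated partners in each replicate number of experiment 2, while the ranges of the conditions overlapped.

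XBP1, the transcription factor spliced by IRE1, had 183, 66.4 and 107 RPM in untreated and 247, 101 and 124 RPM in Nutlin libraries of experiment 2. DNAJB9, a co-chaperone of HSPA5, had 29.5, 13.8 and 30.0 RPM in untreated and 46.9, 24.1 and 31.2 RPM in Nutlin libraries there. HERPUD1 had 62.4, 60.4 and 134 RPM in untreated and 72.4, 96.7 and 139.9 RPM in Nutlin libraries. In all 3 genes the Nutlin value was higher in each replicate number of experiment 2. In experiment 1, untreated against Nutlin, XBP1 had 23.7 and 24.3 against 23.0 and 19.8 RPM, DNAJB9 1.91 and 1.51 against 2.17 and 1.14 RPM, and HERPUD1 14.1 and 15.7 against 17.8 and 17.4 RPM. There, in unscaled RPM, both Nutlin libraries were above both untreated ones for HERPUD1 and below them for XBP1, and the ranges of DNAJB9 overlapped. After library scaling the log2 differences of the same-numbered libraries were 0.36 and 0.47 for HERPUD1 but -0.006 and 0.03 for XBP1. The share of all rows with such a separation of 2 against 2 libraries was not computed.

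**Figure D1:**
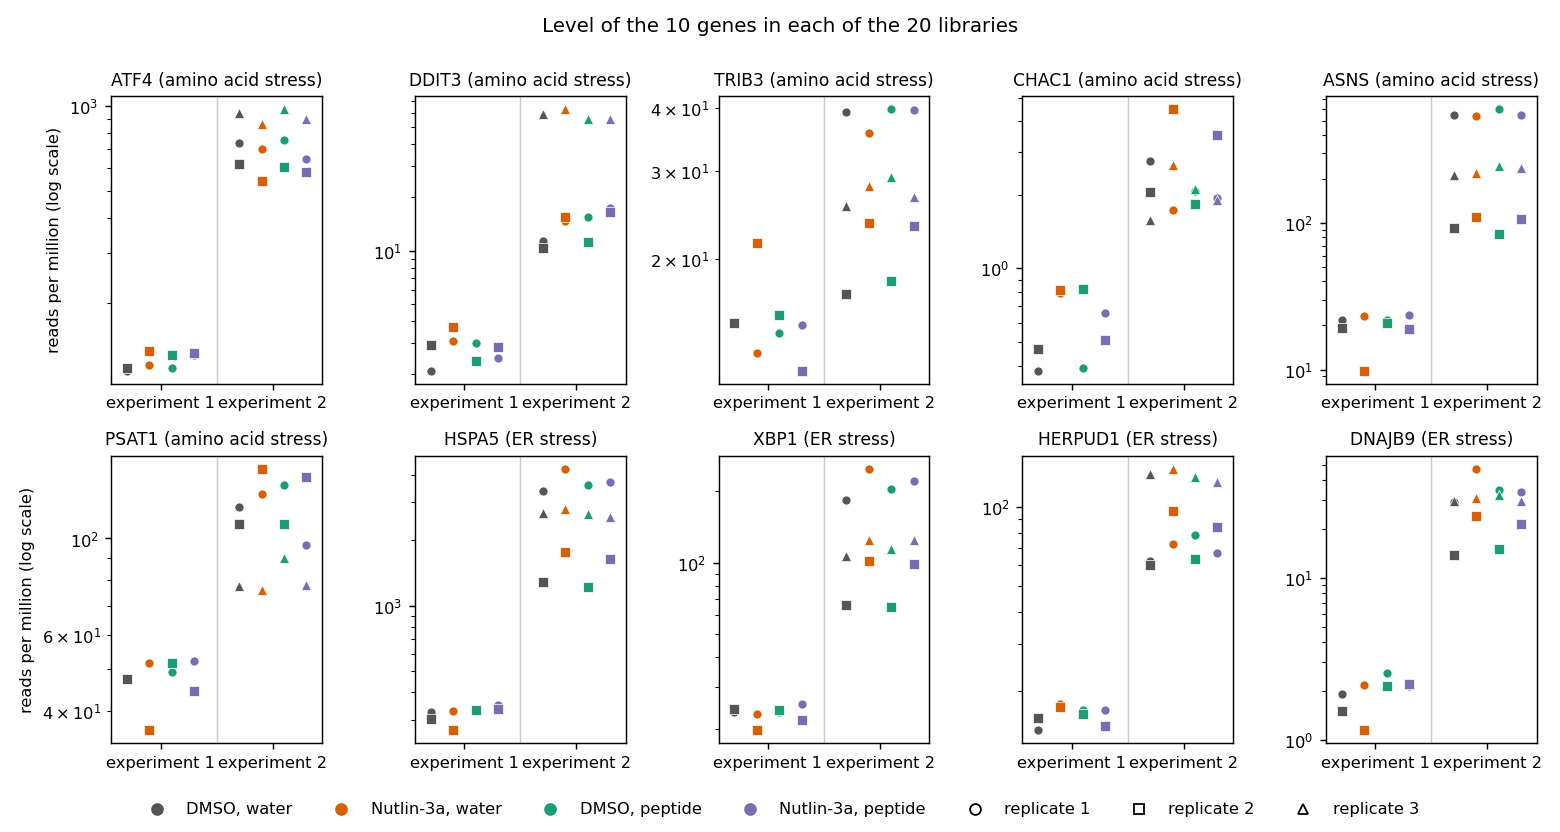
Level of each of the 10 genes in the 20 libraries, in RPM on a log axis; colours are conditions and symbols are replicate numbers, with experiment 1 left and experiment 2 right of the grey line. In experiment 2, ASNS is ordered by replicate number and not by colour, and replicate 3 of DDIT3 lies above all its other libraries.

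The largest differences in these genes lay between the experiments. After library scaling, all 12 libraries of experiment 2 were above all 8 of experiment 1 for 8 of 10 members, and TRIB3 and PSAT1 were the exceptions. Among all rows tested this held for 19.8% (19.3% were wholly below). The median log2 difference was 2.27 for the 4 endoplasmic reticulum members and 1.60 for the 6 amino acid members, against 0.05 for all rows. ASNS and DNAJB9 had the highest values, 3.15 each, followed by HSPA5 at 2.52 and DDIT3 at 2.43. ATF4 stood at 2.12, XBP1 and HERPUD1 at 2.02, CHAC1 at 1.08, PSAT1 at 0.75 and TRIB3 at 0.48. In unscaled RPM the medians went from 329 to 2657 for HSPA5, from 126 to 718 for ATF4 and from 21.3 to 229 for ASNS, and ranges overlapped for TRIB3 alone. The tables were made separately and the share of structural RNA differed between them, so no test was made.

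Other genes of both pathways were higher in experiment 2 to a degree that differed by list. Of the tested genes, 12 of 16 endoplasmic reticulum chaperones, 8 of 10 translocation genes, 8 of 12 degradation genes and 9 of 10 tRNA synthetase and export genes had all libraries of experiment 2 above all of experiment 1. The same held for 5 of 11 sensors, 4 of 9 synthesis enzymes, 3 of 7 amino acid transporters and 5 of 11 other ATF4-linked genes. Among all rows tested it held for 19.8%. The median log2 difference was 1.33 for the chaperones, 1.47 for translocation, 0.87 for the synthetases and 0.56 for the sensors, against 0.05 for all rows. The sensor ERN1 (IRE1) had the opposite sign, at -1.86, as did the chaperone partner DNAJC3, at -0.90; both are named after their values were seen.

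**Figure D2:**
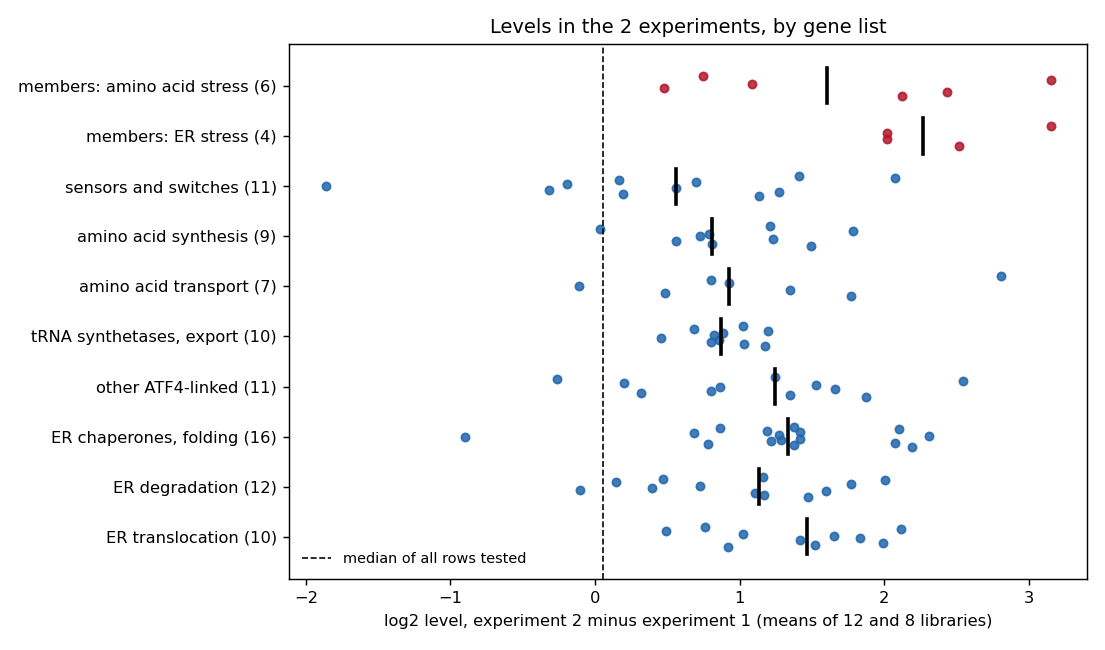
Difference in scaled log2 level between experiment 2 (mean of 12 libraries) and experiment 1 (mean of 8), one point per gene, by list; the dashed line is the median of all rows tested, 0.05. All 10 members lie to its right, and the endoplasmic reticulum members have the highest median of the lists shown, 2.27.

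Within experiment 2, most of the spread of 9 members lay between replicate numbers, which took 77.2% (ATF4) to 98.8% (ASNS) of the sum of squares. The median row had 86.7%, and CHAC1 28.4%. Averaged over conditions, ASNS, XBP1 (2.76-fold), HSPA5 (2.69-fold), DNAJB9 (2.06-fold) and TRIB3 (1.98-fold) were higher in replicate 1 than in replicate 2. ATF4 (1.43-fold), DDIT3 and HERPUD1 (1.62-fold) were highest in replicate 3, and HERPUD1 was level between replicates 1 and 2, at 0.989-fold. PSAT1 was lowest in replicate 3, at 0.598-fold of replicate 2, and CHAC1 was highest in replicate 2. The order did not follow the 2 branches: ASNS went with HSPA5 and XBP1, and HERPUD1 with DDIT3 and ATF4. The median row ranged 1.68-fold over the 3 numbers. By this range ASNS was at percentile 97.8 and DDIT3 at 94.1 of all rows, while HERPUD1 (47.1), ATF4 (30.5) and CHAC1 (26.2) were below the middle.

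**Figure D3:**
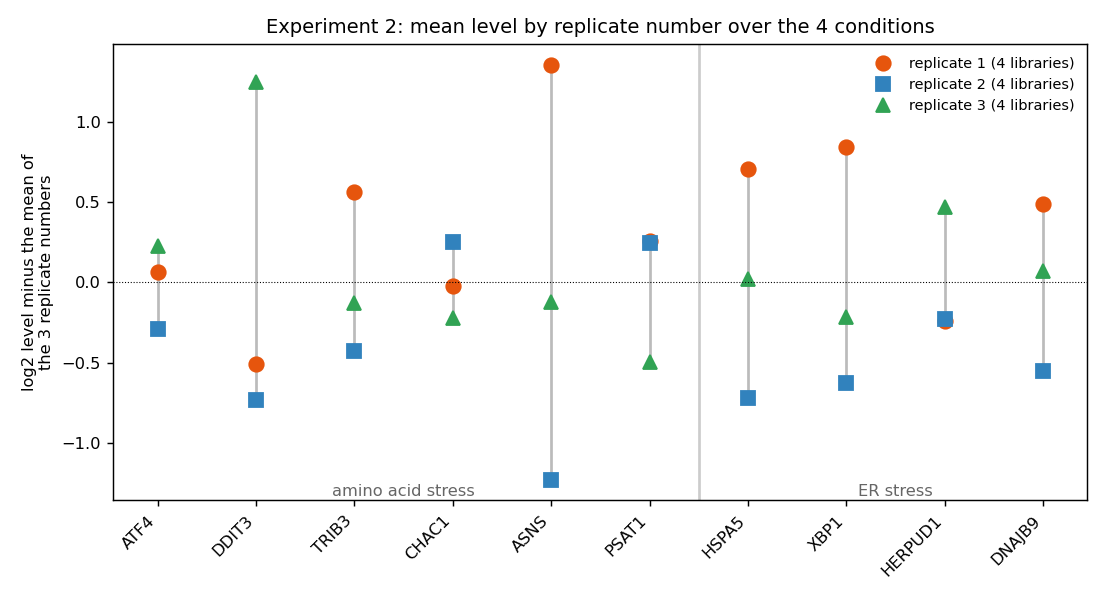
Experiment 2 only: mean log2 level of each gene in replicates 1, 2 and 3 over the 4 conditions, minus the mean of the 3. Replicate 1 is highest for ASNS, HSPA5, XBP1, DNAJB9 and TRIB3, and replicate 3 for DDIT3, ATF4 and HERPUD1.

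Shares of the sum of squares of log2 level over the 20 libraries describe the same pattern. The experiment took 95.4% for ATF4, 93.8% for DNAJB9, 91.1% for HERPUD1 and 87.5% for HSPA5, against a median of 52.5% over all rows. The replicate number within an experiment took 52.8% for TRIB3, 32.7% for PSAT1, 24.4% for DDIT3 and 22.04% for ASNS, against 30.7% for the median row. Condition took 0.0699% for ATF4, 6.09% for CHAC1 and at most 1.83% (TRIB3) for the other 8, against a median of 1.41% over all rows. Within experiment 2 alone, condition took 19.9% for ATF4 and 9.53% for DNAJB9, against a median of 5.33% of all rows, and 0.101% for ASNS.

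**Figure D4:**
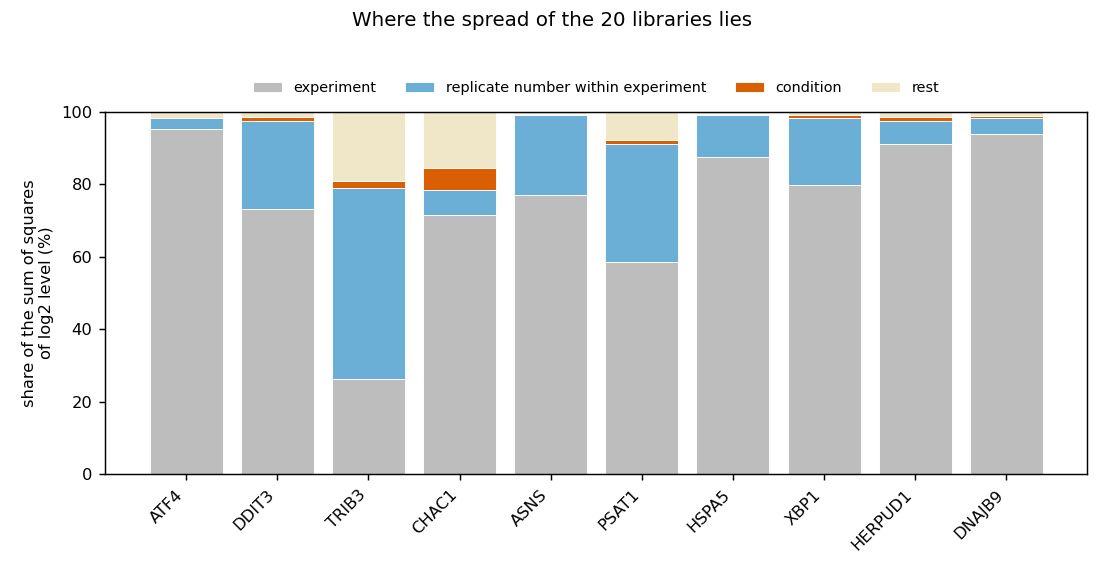
Share of the sum of squares of log2 level over the 20 libraries that lies between experiments, between replicate numbers within an experiment, between conditions and in the rest, stacked to 100% for each gene. Condition is the thinnest band for most genes; it is 6.09% for CHAC1 and 0.0699% for ATF4.

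Nutlin-3a without peptide gave the largest single differences among the members, in CHAC1 and DDIT3. The fitted log2 difference was above 0 for all 4 endoplasmic reticulum members and for 4 of 6 amino acid members. Among all rows 41.6% were above 0. Medians were 0.24 for the endoplasmic reticulum and 0.12 for the amino acid members, against -0.03 over all rows. None passed: limma called 0 of 15958 rows (0% of rows), limma-voom also called 0, and 100 rows (0.627%) and 0 members had an unadjusted p under 0.05. Differences are on the scale of log2 of RPM plus 0.5, which understates low genes such as CHAC1. Adjusted p was 1.00 for each member.

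CHAC1 had the largest difference, 0.41 ± 0.22 (SE), and was higher in 4 of 5 pairs. DDIT3 followed at 0.37 ± 0.48 and HERPUD1 at 0.30 ± 0.21, each higher in 5 of 5 pairs. DNAJB9 was at 0.27 ± 0.27 and XBP1 at 0.20 ± 0.33, each higher in 4 of 5, and HSPA5 at 0.16 ± 0.32, higher in 5 of 5. Pairs are compared after library scaling, which raises the library that stood apart. Unscaled, HSPA5 was lower there than in its untreated partner, at 268 against 300.4 RPM. So was XBP1, at 19.8 against 24.3 RPM. Being above 0 in all 5 pairs was met by 3 of 10 members and by 2.87% of rows. TRIB3 was at 0.17 ± 0.27, PSAT1 at 0.06 ± 0.21, ATF4 at -0.01 ± 0.17 and ASNS at -0.10 ± 0.56 (95% interval of ATF4 -0.37 to 0.35). Without the library that stood apart TRIB3 was at -0.02 ± 0.26, ASNS at 0.06 ± 0.61, ATF4 at -0.12 ± 0.16, DDIT3 at 0.25 ± 0.52, CHAC1 at 0.35 ± 0.24, HERPUD1 at 0.24 ± 0.22 and DNAJB9 at 0.40 ± 0.28, and limma's adjusted p was 1.00 for each member. Single libraries of experiment 2 also moved these values: DDIT3 ranged from 0.07 (without Nutlin replicate 3) to 0.75 (without untreated replicate 3). HSPA5 was at -0.04 without untreated replicate 2, and XBP1 at -0.03 without Nutlin replicate 1.

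With the replicate number as a block, the standard errors of several members shrank, to 0.13 for DDIT3 and 0.11 for ASNS. DDIT3, CHAC1, XBP1 and HERPUD1 then had an unadjusted p under 0.05, 4 of 10 members, all above 0, where 3.12% of rows had this and were above 0. None passed after adjustment: limma's adjusted p with the block was 0.619 for HERPUD1 and 0.649 for DDIT3, CHAC1 and XBP1. Without the library that stood apart and with the block, DDIT3, XBP1, HERPUD1 and DNAJB9 were the 4, against 6.73% of rows. In experiment 2 alone the block gave an unadjusted p under 0.05 for XBP1 and DNAJB9 above 0, at limma adjusted p of 0.0926 and 0.0982, and ATF4 below 0, at 0.135. Of all rows, 9.47% had an unadjusted p under 0.05 above 0 in that fit and 11.5% below 0.

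ATF4 had opposite signs in the pairs of the 2 experiments. Its log2 difference under Nutlin was 0.10 and 0.53 in the pairs of experiment 1, the second from the library that stood apart, and -0.25, -0.27 and -0.15 in those of experiment 2. The difference between the experiments, fitted with the block after these values were seen, was -0.54 ± 0.15, with a limma adjusted p of 0.105. In that fit 28.8% of rows had an unadjusted p under 0.05. Without the block the difference was -0.54 ± 0.34, with an unadjusted limma p of 0.138. With peptide present the pairs of ATF4 read 0.27 and 0.18 (experiment 1), then -0.26, -0.12 and -0.26 (experiment 2). The limma adjusted p of that difference was 0.28 with the block, and the unadjusted p without the block was 0.224.

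Peptide under Nutlin-3a left the members without a common direction: 5 of 10 were above 0, where 60.9% of rows were above 0. Medians were -0.05 for the amino acid and 0.01 for the endoplasmic reticulum members, against 0.04 over all rows. The amino acid median was 0.046 without the library that stood apart. This comparison shares the Nutlin libraries with the comparison above. Limma and limma-voom each called 0 rows (0%), and 77 rows (0.483%) and 0 members had an unadjusted p under 0.05; with the block it was 8.15% of rows and 0 members. CHAC1 was at -0.23 ± 0.22 and HERPUD1 at -0.15 ± 0.21, each lower in 4 of 5 pairs. ASNS was at 0.21 ± 0.56 and higher in 4 of 5 pairs, but at 0.06 ± 0.61 without the library that stood apart, and CHAC1 was at -0.16 ± 0.24 and HERPUD1 at -0.09 ± 0.22 without it. HSPA5 was at 0.00 ± 0.32 (95% interval -0.67 to 0.67), which does not show that it was alike in the 2 conditions.

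Peptide without Nutlin-3a gave small positive differences in all 10 members, where 60.0% of rows were above 0. The untreated libraries used here also enter the comparison of Nutlin-3a without peptide, so the signs of these comparisons are not separate. Limma and limma-voom called 0 rows (0%), and 16 rows (0.1%) and 0 members had an unadjusted p under 0.05, or 1.05% of rows and 0 members with the block. Medians were 0.08 for the amino acid and 0.10 for the endoplasmic reticulum members, against 0.02 for all rows. DNAJB9 was at 0.27 ± 0.27 and HERPUD1 at 0.15 ± 0.21, both higher in 5 of 5 pairs, which 5.86% of rows met. PSAT1 was at 0.13 ± 0.21 and DDIT3 at 0.14 ± 0.48, each higher in 4 of 5 pairs.

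In peptide-treated cells, Nutlin-3a against DMSO gave medians of 0.01 and 0.07 for the 2 branches, against -0.01 for all rows. Limma and limma-voom called 0 rows (0%), and 26 rows (0.163%) and 0 members had an unadjusted p under 0.05, or 1.83% and 0 members with the block. XBP1, at 0.17 ± 0.33, was the highest member and higher in 4 of 5 pairs. PSAT1, at -0.08 ± 0.21, was the lowest.

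The test of whether the Nutlin difference depended on peptide was below 0 for 9 of 10 members, where 44.5% of rows were below 0. ASNS was the exception, at 0.13 ± 0.79. The test uses all the libraries of the comparisons above, so its signs are not separate from theirs. Without the library that stood apart, ATF4 went from -0.03 to 0.08 and TRIB3 from -0.18 to 0.007. HERPUD1 was at -0.31 ± 0.29 and below 0 in 5 of 5 sets of same-numbered libraries. Its values there were -0.26, -0.46 (the set with the library that stood apart), -0.31, -0.26 and -0.24. DDIT3 was at -0.23 ± 0.67 and also below 0 in 5 of 5, which 1.83% of rows met. Limma and limma-voom called 0 rows (0%), and 26 rows (0.163%) and 0 members had an unadjusted p under 0.05. With the block HERPUD1 alone of the members had one (0.0496), where 1.8% of rows had one and 0.927% had one and were below 0, and its adjusted p was 1.00. HERPUD1 did not keep it with the block once the library that stood apart was left out. DNAJB9 alone then had one, below 0, where 2.7% of rows had one and were below 0. With the block and limma-voom 0 members had one.

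**Figure D5:**
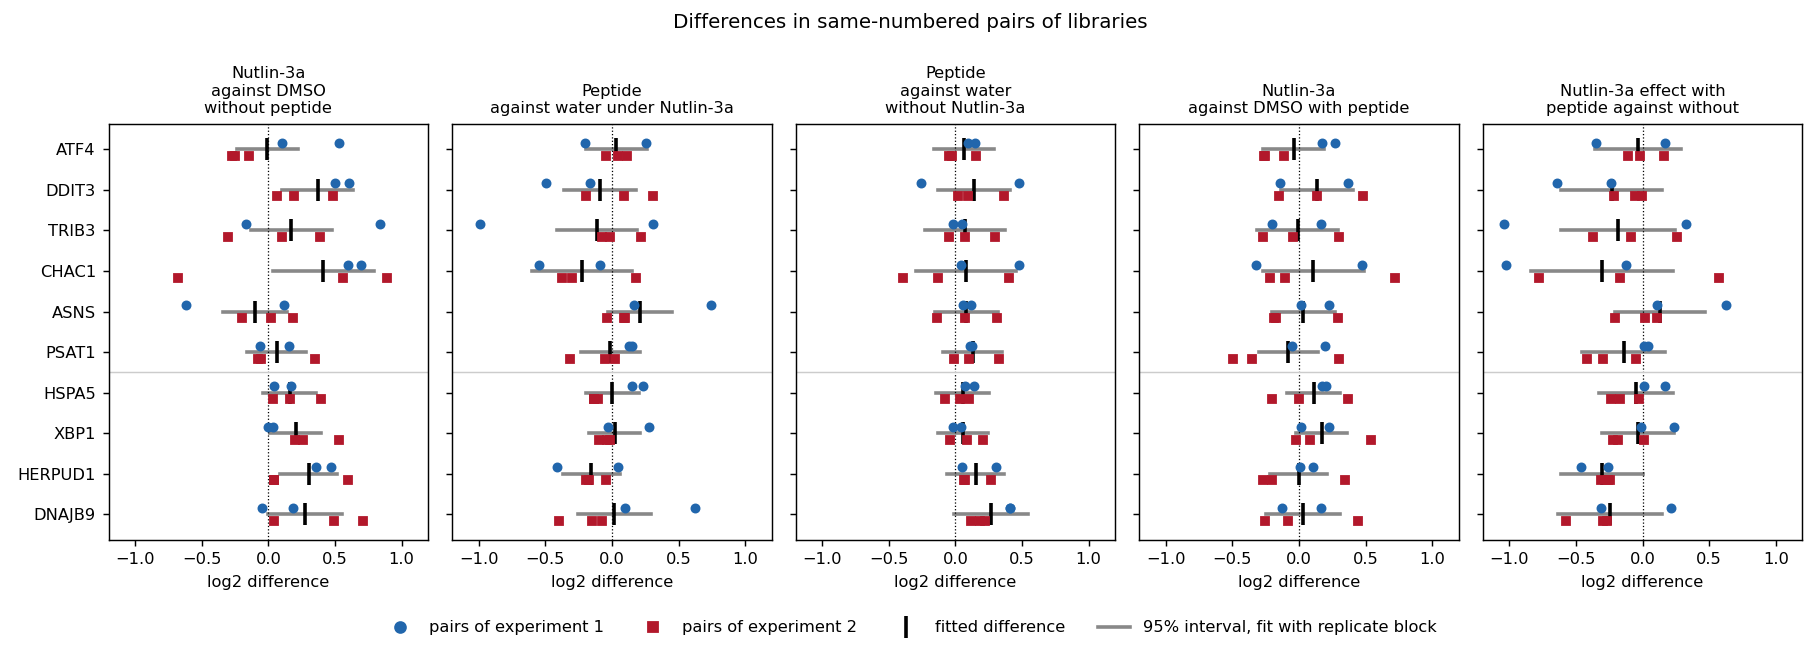
Log2 differences in the 5 pairs of same-numbered libraries for each gene and comparison (blue circles experiment 1, red squares experiment 2), with the fitted difference as a tick and its 95% interval from the fit with the replicate block in grey. In the first panel DDIT3, HSPA5 and HERPUD1 have all 5 pairs above 0, and ATF4 has blue points above and red points below 0.

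Around the members, 90 further genes of both pathways were listed and 86 were tested; limma called none in any comparison. Under Nutlin without peptide 51 were above 0 and 35 below, with a median of 0.03, where 41.6% of rows were above 0. With the block 11 had an unadjusted p under 0.05 above 0 and 1 below, where 3.12% of rows had one and were above 0. Of those 11, 6 came from 11 other ATF4-linked genes, whose median was 0.30 against -0.03 over all rows. SESN2, a stress-induced inhibitor of growth signalling, was the highest of that list at 0.98 ± 0.38 and higher in 5 of 5 pairs, with a limma adjusted p of 1.00, and of 0.138 with the block. GADD45A, named after its values were seen, was at 0.85 ± 0.38, with an adjusted p of 0.109 with the block. Both, and ATF3 at 0.44 ± 0.21, are also known p53 targets, so this list is not one of the ATF4 pathway alone. KLHL24 was the lowest of the list at -0.09 ± 0.14. Without the library that stood apart SESN2 was at 0.75 ± 0.39, GADD45A at 0.67 ± 0.40 and ATF3 at 0.31 ± 0.21.

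With peptide under Nutlin the same 11 genes had a median of -0.14, and SESN2 was lowest at -0.68 ± 0.38. Its mean was -1.57 in experiment 1 and -0.08 in experiment 2, and the fitted value was -0.45 ± 0.39 without the library that stood apart. That comparison shares the Nutlin libraries with the one before, and the fitted differences are given side by side. Among lists closer to the members' own functions, the 16 chaperones had a Nutlin median of 0.10, with HYOU1, an HSP70-like chaperone, highest at 0.20 ± 0.24 and higher in 5 of 5 pairs. The 7 amino acid transporters had a median of 0.16, the 9 synthesis enzymes one of 0.00 and the 10 tRNA synthetase and export genes one of -0.06. MTHFD2, a folate enzyme of mitochondria, was lowest of the synthesis list at -0.13 ± 0.16 and lower in 5 of 5 pairs. EIF2S1, the subunit of eIF2 that the stress kinases phosphorylate, was lowest of the sensors at -0.25 ± 0.23 and lower in 5 of 5 pairs. Without the library that stood apart EIF2S1 was at -0.10 ± 0.22, MTHFD2 at -0.07 ± 0.17 and HYOU1 at 0.13 ± 0.26.

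Genes whose levels followed the mean of each branch most closely were found over the 20 libraries after the mean of each experiment was removed. For the amino acid members these were ORMDL2 (r = 0.914), DDOST (0.875), TMED9 (0.875), ZNF513 (0.874) and CDK2AP2 (0.873). For the endoplasmic reticulum members they were PPIC (0.947), TMEM59 (0.947), SURF4 (0.945), MATN2 (0.944) and FYN (0.934). The points share libraries and form 3 clusters by replicate number in experiment 2, so these are descriptions. The members themselves followed their own branch mean unequally, from 0.193 (DDIT3), 0.218 (PSAT1) and 0.373 (CHAC1) to 0.889 (TRIB3) in the amino acid branch, and from 0.370 (HERPUD1) to 0.949 (HSPA5) in the other. Each member is part of its own branch mean, which raises its r by construction, unlike that of the non-members. MATN2 followed in experiment 2 (0.968) and not in experiment 1 (0.293). Of the members, ASNS alone changed sign against its branch mean, from -0.557 in experiment 1 to 0.868 in experiment 2.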

How the data were processed

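Levels were made from the deposited tables, 1 per experiment. Per the submitters' processing notes HISAT2, bedtools, limma and the build hg38 were used; versions, settings and strand handling are not given in the sources used here. The deposited values are another quantity than the design assumed: from the values, the authors' score is RPM divided by the stop minus a thousandth of the start of the row. Undoing this gave columns summing to 1000000 RPM, and 100% of values were whole reads at a tolerance of 0.001. Isoforms differed between tables for 1491 symbols. Because the deposited unit is not a raw count, limma 3.58.1 in R 4.3.3 was used on log2 of trimmed-mean-scaled RPM (30% of log ratios, 5% of abundances) plus 0.5, for rows with a mean of 0.5 RPM or more, with terms for condition and experiment and Benjamini-Hochberg adjustment over all rows tested, and calls at an adjusted p under 0.05. It was tested on simulated data. Limma-voom on the recovered reads was an alternative, as were other scalings, filters and pseudocounts, each experiment alone and each library left out.

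Same-numbered libraries were taken as pairs from the values, since no label states it: their deviations from condition means correlated at 0.286 to 0.586 in experiment 1 (12 pairs, which mirror each other with 2 replicates) and at 0.877 to 0.940 in experiment 2 (18 pairs). Differently numbered ones were at -0.586 to -0.286 and -0.530 to -0.373. The replicate block is a term for each of these 5 numbers.

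Some called rows are not named here. Members and gene lists were chosen with earlier results of these data known. Of the lists, the highest and lowest gene in a comparison are named, and like genes are the 5 with the highest Pearson r. Promoters and their sequences are from RefSeq (GRCh38.p14). Plots were drawn in Python 3.11.15 with matplotlib 3.10.9. Markers were EPCAM, KRT8, KRT18, CDH1, VIL1 and CDX2 for epithelium, PTPRC, CD3E, CD79A and LYZ for leukocytes, COL1A2, COL3A1, DCN and LUM for fibroblasts, and PECAM1, VWF and CDH5 for endothelium.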

Additional observations from a re-analysis of the deposited data

How the results depend on the processing

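No member was called under any of 34 alternatives (33 for CHAC1), including those with the replicate block, and the lowest adjusted p of any member was 0.0926, for XBP1 under Nutlin without peptide in experiment 2 alone with the block. No row was called in any comparison when single libraries were left out, nor under other scalings or pseudocounts. Rows, none of them members or listed pathway genes, were called in these settings. Under Nutlin without peptide, 5 rows were called with the replicate block and without the library that stood apart, and 9 with the replicate block and limma-voom. Limma-voom with the block also called 3 rows for peptide under Nutlin (ASTN2, GRAPL and RNU4-2), 7 for Nutlin with peptide present and 4 for the dependence of Nutlin on peptide (GRAPL, RNU4-1, RNU4-2 and RNU5E-1). Experiment 1 alone, with or without the block, called 1 row for peptide under Nutlin (GRIN2C) and SNORD24 as 1 row each for peptide without Nutlin and for Nutlin with peptide present; without a filter 1 row (LINC01251) was called in the last. Genes named beside these counts were chosen after their values were seen. The cause of these changes was not tested.

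The median of the endoplasmic reticulum members for peptide under Nutlin was 0.16 in experiment 1 alone and -0.13 in experiment 2 alone, the same with the block, so its sign differed between the experiments. For the dependence of Nutlin on peptide that median was 0.019 in experiment 1 alone. With single libraries left out it ranged from -0.11 (without Nutlin replicate 2 of experiment 2) to 0.20 (without replicate 1) for peptide under Nutlin, from -0.039 to 0.28 for peptide without Nutlin, and from -0.35 to 0.043 for the dependence; for Nutlin without peptide it ranged from 0.029 to 0.38. The amino acid median ranged from -0.025 to 0.23 for peptide without Nutlin, from 0.049 to 0.25 for Nutlin without peptide and from -0.078 to 0.046 (without the library that stood apart) for peptide under Nutlin. Leaving out replicate 1 or 2 of experiment 2 moved these most, except the amino acid median for peptide under Nutlin, which the library that stood apart moved most. Each experiment alone with the block, and the difference between experiments, were added after the data were seen.

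Depth limits CHAC1 most, with as few as 14 reads, and the structural RNA share limits any reading of levels across experiments.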

Other observations

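MARS and THAP5 overlap a member on the opposite strand, and their values are set beside it. MARS averaged 103 RPM (experiment 1) and 255 RPM (experiment 2), with a log2 difference of 0.06 ± 0.10 (SE) under Nutlin without peptide, beside DDIT3 at 0.37. THAP5 averaged 8.74 and 38.3 RPM and had -0.12 ± 0.22, beside DNAJB9 at 0.27. Between replicates 3 and 2 of experiment 2, THAP5 was at 0.752-fold where DNAJB9 was at 1.54-fold. Whether reads of these genes entered the members' rows was not tested.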
